A study of Mus musculus with 146 samples.

Results

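The mitochondrial ribosomal protein genes (Mrp genes) were followed in single germ cells of the newborn mouse ovary. They were taken as every gene symbol of the deposited tables made of Mrpl or Mrps, a number and at most 1 further letter, which gave 77 of 52605 symbols, 48 named Mrpl and 29 named Mrps. All 77 were protein-coding in the GENCODE annotation. The rule reads names only. Symbols ending in -ps, which mark pseudogenes, were left out (5 symbols). Mrpl58 was not among the names, since the tables list that gene as Ict1, which was read with other mitoribosome genes under their own names.

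Mammalian mitochondria make only a few proteins of their own, all of them parts of the respiratory chain or of ATP synthase, on a ribosome that differs from the cytosolic one. Its RNAs come from mitochondrial DNA, while every protein is encoded in the nucleus, made in the cytosol and imported. Some of these proteins have a bacterial counterpart, and others are found only in mitochondria. Oocytes carry large numbers of mitochondria, and these are the source of the mitochondria of the next generation.

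Each of the 146 libraries was made by Smart-seq2, a full-length method that amplifies polyadenylated RNA from 1 cell, from a germ cell picked under the microscope. The ovaries (n = 5) came from C57/BL6J pups of the same litter at day 0.5, when germ cell cysts break down and primordial follicles form. All cells shared this strain, age and tissue, no treatment was given, and the labels did not tie a cell to a pup. The series is therefore 1 group without biological replicates, so that no test was run and no p-value is given, and spreads are spreads between cells.

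Some libraries stood apart. In 1 library there was no Ddx4 (0 TPM, a level per transcript length that sums to the same total in every library), the RNA helicase that marks germ cells. It also had 0 TPM of Mael, Nobox, Figla and Kit, and 0.221 TPM of Dazl. Of 7 stroma markers, Col1a2 (222 TPM), Tcf21 (14.1 TPM) and Pdgfra (11.46 TPM) were high in it, while Dcn (0.553 TPM) and Nr2f2 (0.339 TPM) were low and Col1a1 and Col3a1 were at 0. It was left out. The libraries kept held 7 pairs that were nearly alike, with Pearson correlations of log TPM over coding genes of 0.989 to 0.996, while the next pair of libraries reached only 0.813 and the median pair 0.601. The labels do not mention repeats. Each such pair was counted as 1 cell with the mean of its values, so that the cells are the 146 libraries less 1 left out and 7 averaged with their pair. The pairs gave a measure of the error of the steps after their libraries separated, which the labels do not name, so that losses and amplification before that point are not in it. Over 539 pairs of Mrp values, the median absolute difference on the log2(TPM + 1) scale was 0.08 between the libraries of a pair and 1.09 between different cells among the same 7. Summed over the 77 genes, the libraries of a pair differed by 0.246% to 3.24% of their mean.

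The number of reads assigned to genes per library, in units of 1000000, was 1.41 to 26.9 with a median of 9.49. Cells had been kept by their Ddx4, which was at 7.49 to 542 TPM. Of the other 6 germ cell markers, Dazl and Figla were detected in every cell, with Dazl at 93.3 to 1403 TPM and the oocyte factor Figla at 1.87 to 4453 TPM. The rest were detected in most cells, Mael in 99.3%, Nobox in 97.8%, Kit in 96.4% and Tex14 in 89.1%. Foxl2, which marks pregranulosa cells and against which the study had screened its cDNA, was at 0.1 TPM or more in 4 cells. Haemoglobin RNA of at least 1000 TPM was found in 24 cells.

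All 77 Mrp genes were expressed. Each had a mean of at least 10 TPM over the cells, and 37 had a mean of at least 100 TPM. The median gene lay at 95.5 TPM, and the highest mean was 50.2 times the lowest. A threshold of 0.1 TPM was used for detection, and a cell showed a median of 75 of the 77 genes (lowest 36, highest 77). With 500000 reads drawn from each cell and at least 1 read asked for, this median was 72. The sum of the 77 genes took a median of 10840 TPM, or 1.08% of all transcripts, with a range of 2147 to 21151 TPM.

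The 8 genes with the highest means were Mrpl33, Mrps21, Mrps18c, Mrpl55, Mrpl15, Mrps24, Mrpl42 and Mrps14. Mrpl33, a small protein of the large subunit, was at 522 TPM ± 435 (SD over cells) and ranged from 0 to 3303 TPM with a median of 402 TPM. Mrps21, a protein of the small subunit with a bacterial counterpart, was at 452 TPM ± 331 and was found in every cell (lowest 14.7 TPM, highest 2217 TPM). Mrps18c followed at 427 TPM ± 233 and Mrpl55 at 402 TPM ± 207. The SDs of these 4 genes exceeded the steps between their means. An SD here is the spread of single cells and not the error of a mean, and the genes share the same cells. Whether the order of the 4 means is separated was not tested.

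At the other end stood Mrps25 (10.4 TPM ± 12.2), Mrps30 (12.95 TPM ± 13.5), Mrpl45 (15.5 TPM ± 14.01), Mrpl20 (18.8 TPM ± 15.8) and Mrpl50 (18.99 TPM ± 22.6). Many of these means hid cells at or near 0. Mrps30 reached 0.1 TPM in 76.8% of cells (exact binomial 95% interval 68.9% to 83.6%, counting error only), and Mrpl50 in 77.5%. These 2 genes, Mrps27, Mrpl49 and Mrpl34 were the 5 detected in under 80% of cells, while 10 genes were detected in every cell. Of those 10, only Mrpl4, Mrps17, Mrps18c and Mrps21 had a lowest value (0.921 to 16.2 TPM) above 3 reads in the median cell. The others went as low as 0.114 TPM (Mrpl2), where 3 reads were 0.673 TPM. Detection at 0.1 TPM can thus rest on fewer than 3 reads. A count of 0 allowed about 0.117 TPM of Mrps30 in the median cell (3 reads), well under its median of 9.71 TPM.

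**Figure D1:**
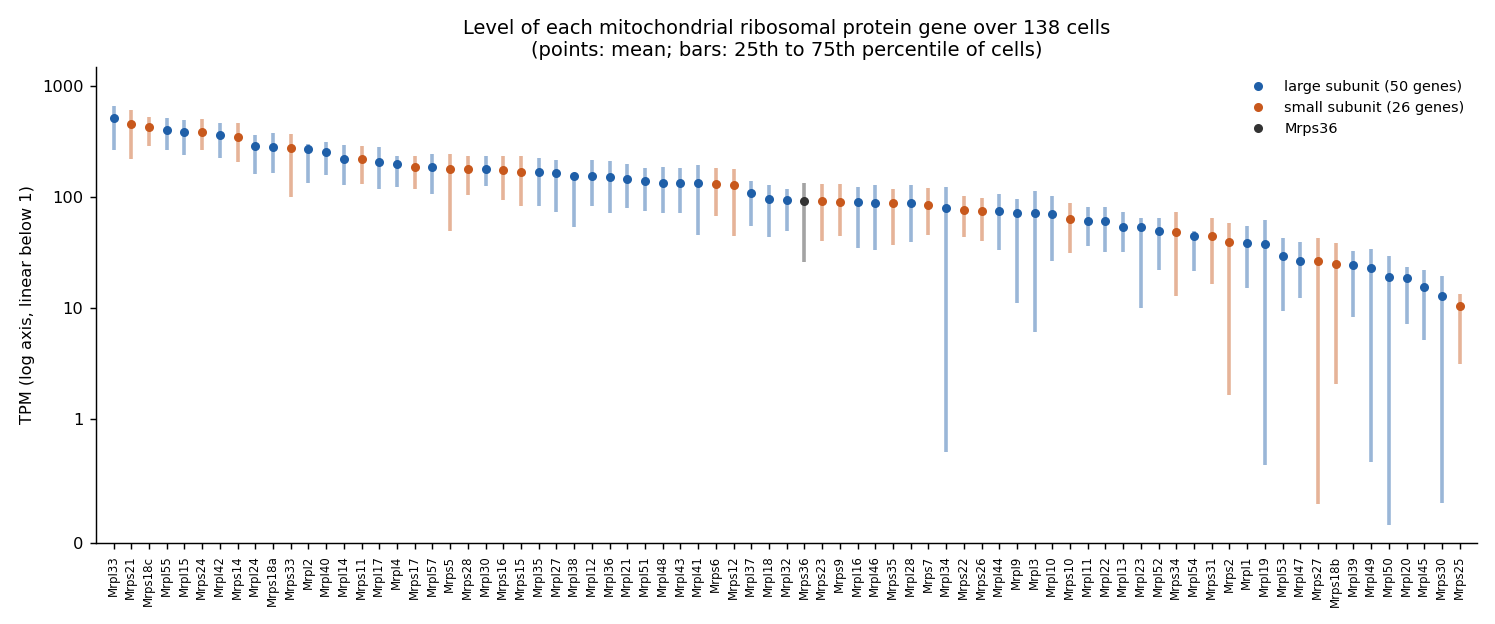
Mean level of each of the 77 genes over all cells (points) with the 25th to 75th percentile of cells (bars), in TPM on a log axis that turns linear below 1, ordered by mean. Large and small subunit genes are mixed along the whole range from 522 TPM (Mrpl33) to 10.4 TPM (Mrps25), and the bars of the low genes reach toward 0.

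By subunit, 50 of the genes encode proteins of the large subunit and 26 of the small one. Mrps18a and Mrps30 were counted with the large subunit, where structures place their proteins, and Mrps36 with neither, because its protein is now known as a part of the 2-oxoglutarate dehydrogenase complex of the citric acid cycle. The median gene mean was 96.2 TPM in the large subunit and 110 TPM in the small one, a ratio of 0.873 that is small beside the ranges within them (12.95 to 522 TPM and 10.4 to 452 TPM). Genes whose proteins were counted as having a bacterial counterpart (47 genes) had a median of 146 TPM, and those counted as known only from mitochondria (29 genes) had one of 76.1 TPM. Of the related Mrps18 genes, Mrps18b and Mrps18c were put in the first class and Mrps18a in the second. Values with Mrps18b in the second class were not computed.

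The summed large and small subunits moved together across cells, with a Spearman's rho of 0.769 (all cells, Pearson's r 0.820, and 0.796 without the 2 cells farthest from the median). Both sums share the library and its total, so this is a description of the cells and not a test. The large-to-small ratio of summed TPM was 1.66 in the median cell and lay between 1.27 and 2.24 from the 5th to the 95th percentile, although single cells reached 0.920 and 5.24.

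The Mrps18 genes encode related proteins that take different places in the ribosome. Mrps18c stood at 427 TPM ± 233 and Mrps18a at 282 TPM ± 190, and both were detected in every cell. Mrps18b was much lower, at 25.3 TPM ± 26.2, and was detected in 84.1% of cells. Its reads were not whole numbers in 58.7% of cells (by more than 0.01), as happens where reads are split with other transcripts, against 15.2% for Mrps18c. Mrpl12, the stalk protein that also binds the mitochondrial RNA polymerase, was at 154 TPM ± 102.3, and Mrpl57, a small protein found only in mitochondria, at 186 TPM ± 106.8.

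The genes also differed in how even they were. Mrps24 varied least between cells, with a coefficient of variation (CV, SD over mean) of 0.488, followed by Mrpl30 (0.496) and Mrps17 (0.511). Mrps17 was never under 16.2 TPM. Mrpl38 varied most, with a CV of 1.53 and a range of 0 to 2236 TPM around a median of 87.8 TPM, then Mrpl2 (1.26) and Mrpl50 (1.19). The highest Mrpl2 value, 3438 TPM, came from 1 cell, while its median was 208 TPM.

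Single members followed each other only weakly. The median Spearman's rho over 2926 pairs of Mrp genes was 0.13, with 86.1% of the pairs above 0, beside 0.04 and 64.4% over all pairs of 11756 coding genes with a mean of at least 1 TPM. It was 0.13 within the large subunit, 0.12 within the small one and 0.12 between them. Pairs of 77 nuclear genes of the respiratory chain and ATP synthase had a median of 0.25, pairs of 82 cytosolic ribosomal protein genes one of 0.28 and pairs of the 13 protein genes of mitochondrial DNA one of 0.62. These values share library, depth and the fixed total of TPM, and in sparse counts a weak correlation is no finding. The 3 closest pairs were Mrpl33 with Mrpl54 (rho 0.63), Mrps21 with Mrps33 (0.63) and Mrps33 with Mrps36 (0.62). Against the sum of the other members, Mrpl30 reached 0.62 and Mrpl33 0.62, while Mrpl38 stood lowest at -0.06.

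To follow the genes along oocyte development, the cells were ordered by the first principal component of 20 germ cell and oocyte genes, none of them an Mrp gene, with the meiotic gene Sycp2 high at the start and oocyte genes such as the zona pellucida genes toward the end. The component held 36.5% of the variance of those genes. The order was cut into 5 bins of 27 or 28 cells. The bins are stretches of a continuous score and not cell types, and 50 cells lay within 0.1 SD of a boundary. The bins also differed in technical measures. Bin 5 had a median of 9704 coding genes detected and 10.8 reads in units of 1000000, against 8431.5 and 9.36 in bin 1, and spike-in RNA was at a median of 6196 TPM in bin 5 and 11147 TPM in bin 1. Summed pregranulosa markers had medians of 0.165 to 0.424 TPM per bin. Summed stroma markers had a median of 6.02 TPM in bin 1 and 1.10 TPM in bin 5, and markers of blood and endothelium one of 87.1 TPM and 21.3 TPM. The cell with the lowest Mrp sum of bin 1 had 171809 TPM of haemoglobin RNA. Their part in the differences below was not tested.

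The summed Mrp level was higher toward the end of the order. Its median was 9669 TPM in bin 1 (lowest 5089, highest 14131), 9836 TPM in bin 2, 11433 TPM in bin 3, 11095 TPM in bin 4 and 12638 TPM in bin 5 (lowest 5180, highest 19623). The ranges of all bins overlapped. Across cells, rho with the order was 0.40 (all cells, Pearson's r 0.30). The highest sums came from libraries numbered close together. Libraries 33, 25, 23, 21 and 28 had 17866 to 21151 TPM, in bins 3 and 5. They showed 5228 to 7792 coding genes, against a median of 8579.5 over all cells. The labels do not say whether such libraries were handled together, and the part of this in the bin medians was not tested. Bin 4 was the most uneven by CV (0.402, against 0.196 to 0.280 in the other bins). Its sums went from 2147 to 17227 TPM, and it held 4 of the 5 cells with the lowest sums. In those 5 cells, 14.9% to 29.9% of TPM came from mitochondrial DNA, against a median of 9.30% over all cells, and 46 to 74 Mrp genes were detected.

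**Figure D2:**
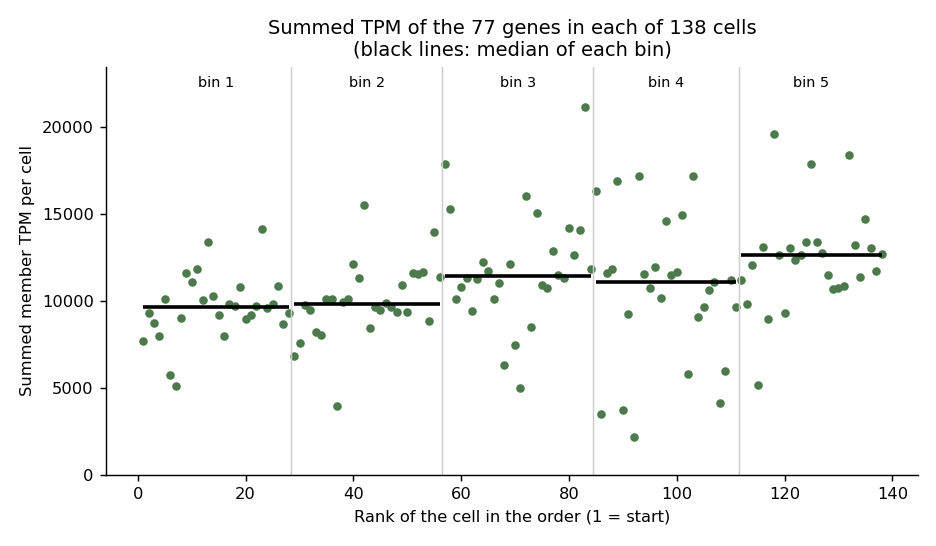
Summed TPM of the 77 genes in each cell (points) against the rank of the cell in the order, with the median of each bin as a black line. The medians go from 9669 TPM in bin 1 to 12638 TPM in bin 5, the ranges overlap, and 4 of the 5 lowest cells lie in bin 4.

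The sum hid opposite movements of single genes. Bin means of TPM were compared as log2 ratios after adding 1 TPM, and a ratio beyond 1.5-fold was counted. From bin 1 to bin 5, 19 Mrp genes were higher, where 24% of the 11756 coding genes were, and 7 were lower, where 38.8% of coding genes were. The other 51 stayed within 1.5-fold. The share higher (24.7%) was thus near the background, and the share lower (9.09%) was under it. The background was not matched for level. The median gene mean was 95.5 TPM over the Mrp genes and 18.4 TPM over all coding genes. The part of level in these shares was not tested. The median log2 ratio was 0.10 over the Mrp genes and -0.28 over all coding genes. From bin 1 to bin 3, 12 members were higher (background 20.2%) and 4 lower (27.9%), and from bin 3 to bin 5, 10 were higher (20.6%) and 7 lower (29.5%).

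When TPM were divided by the spike-in TPM of the cell, the counts became 50 higher (background 47.1%) and 0 lower (17.1%), and the median of all coding genes moved to 0.50. Directions below are therefore relative to the other transcripts of a cell and not amounts per cell. Of the 19 higher members, 18 passed 1.5-fold on TPM, on reads scaled to the same total (CPM), on TPM rescaled over nuclear coding genes and on the spike-in scale alike, as did 22.6% of all coding genes. Of the 7 lower ones, only 3 did so on the first 3 of these scales (background 30.9%). On CPM 22 members were higher in all (background 29.1%) and 4 lower (33.2%), and on rescaled TPM 20 were higher (25.2%) and 8 lower (38.2%). With the cells ordered by 2000 variable genes instead, 16 members were higher (background 25.2%) and 17 lower (background 39.4%), so that the number of lower members rests on the order of cells. All 7 were lower with both orders, but the share of all coding genes lower with both was not counted. With bin means of log2 values, which weigh cells more evenly, 29 members were higher (background 31.3%) and 6 lower (26.3%).

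Mrps36 had the largest ratio. It ranged from 0 to 83.6 TPM in bin 1 (median 38.3) and from 28.7 to 365 TPM in bin 5 (median 226). The bins overlapped, but 21 of the 27 cells of bin 5 lay above the highest cell of bin 1. The log2 ratio was 2.48, and leaving out single cells moved it between 2.40 and 2.58.

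Mrps33, a small subunit protein found only in mitochondria, went from a median of 122.1 TPM in bin 1 (0.439 to 360) to 512 TPM in bin 5 (126.05 to 1562). Here 24 of 27 cells of bin 5 were above every cell of bin 1, and the log2 ratio was 2.00.

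Mrpl32, a large subunit protein known to be cleaved by the m-AAA protease before it joins the ribosome, was at a median of 51.9 TPM in bin 1 (0.707 to 103.98) and 194 TPM in bin 5 (66.7 to 383). Again 24 of 27 cells lay above the highest of bin 1, with a log2 ratio of 1.90. Most of this lay at the end of the order, with a log2 ratio of 0.58 from bin 1 to bin 3 and of 1.32 from bin 3 to bin 5. Its rho with the order was 0.64.

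Mrps21 went from a median of 224 TPM (14.7 to 682) to 657 TPM (220 to 2217), a log2 ratio of 1.66, and 13 of 27 cells of bin 5 were above all of bin 1. Mrpl23, a protein at the exit of the peptide tunnel, went from 28.7 TPM (0 to 103.4) to 95.4 TPM (3.51 to 308), a log2 ratio of 1.60. Its value is uncertain, because the pseudogene Mrpl23-ps1 was given more (mean 163 TPM against 53.5 TPM) and the reads of Mrpl23 were not whole in 92.8% of cells. The sum of both gave a log2 ratio of 1.67. Other members also had reads that were not whole, such as Mrps14 (94.2% of cells), Mrpl15 (66.7%) and Mrpl33 (44.2%), and their levels share that doubt.

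The other 14 higher members had log2 ratios of 0.62 (Mrpl55) to 1.48 (Mrpl34). They included Mrpl54 (1.14), Mrpl33 (1.12), Mrpl42 (0.81), Mrpl2 (0.71) and Mrpl57 (0.68). The median of Mrpl33 was 299 TPM in bin 1, 390 TPM in bin 2, 538 TPM in bin 3, 411 TPM in bin 4 and 576 TPM in bin 5, and the highest of its cells, at 3303 TPM, lay in bin 3.

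Among the lower members, Mrpl3, a protein near the peptidyl transferase centre, had the largest ratio. It was at a median of 110 TPM in bin 1 (0 to 432) and 43.2 TPM in bin 5 (0 to 153), and the log2 ratio was -1.34 (-1.44 to -1.15 with single cells left out). No cell of bin 5 exceeded the highest of bin 1, yet the bins overlapped over the whole range of bin 5, with 5 of its 27 cells above the median of bin 1.

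Mrps30 was at 17.1 TPM in bin 1 (0 to 54.4) and 6.18 TPM in bin 5 (0 to 31.8), with 4 cells under 0.1 TPM in each bin and a log2 ratio of -0.92. Mrpl49 went from 24.9 TPM (0 to 134.1) to 17.9 TPM (0.0516 to 48.3), a log2 ratio of -0.86, and the upper end of its range came down more than its median. Mrps9, a protein of the head of the small subunit, went from 114.5 TPM (24.4 to 344) to 72.2 TPM (0.251 to 210), with a log2 ratio of -0.80. Mrpl44, which is related to ribonuclease III, went from 84.4 TPM (0 to 261) to 65.3 TPM (0.544 to 122.8), with a log2 ratio of -0.69. All of these ranges overlapped widely. On the spike-in scale Mrps30, Mrpl49, Mrps9 and Mrpl44 stood between 0.01 and 0.12, so that their lower level held only relative to other transcripts.

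**Figure D3:**
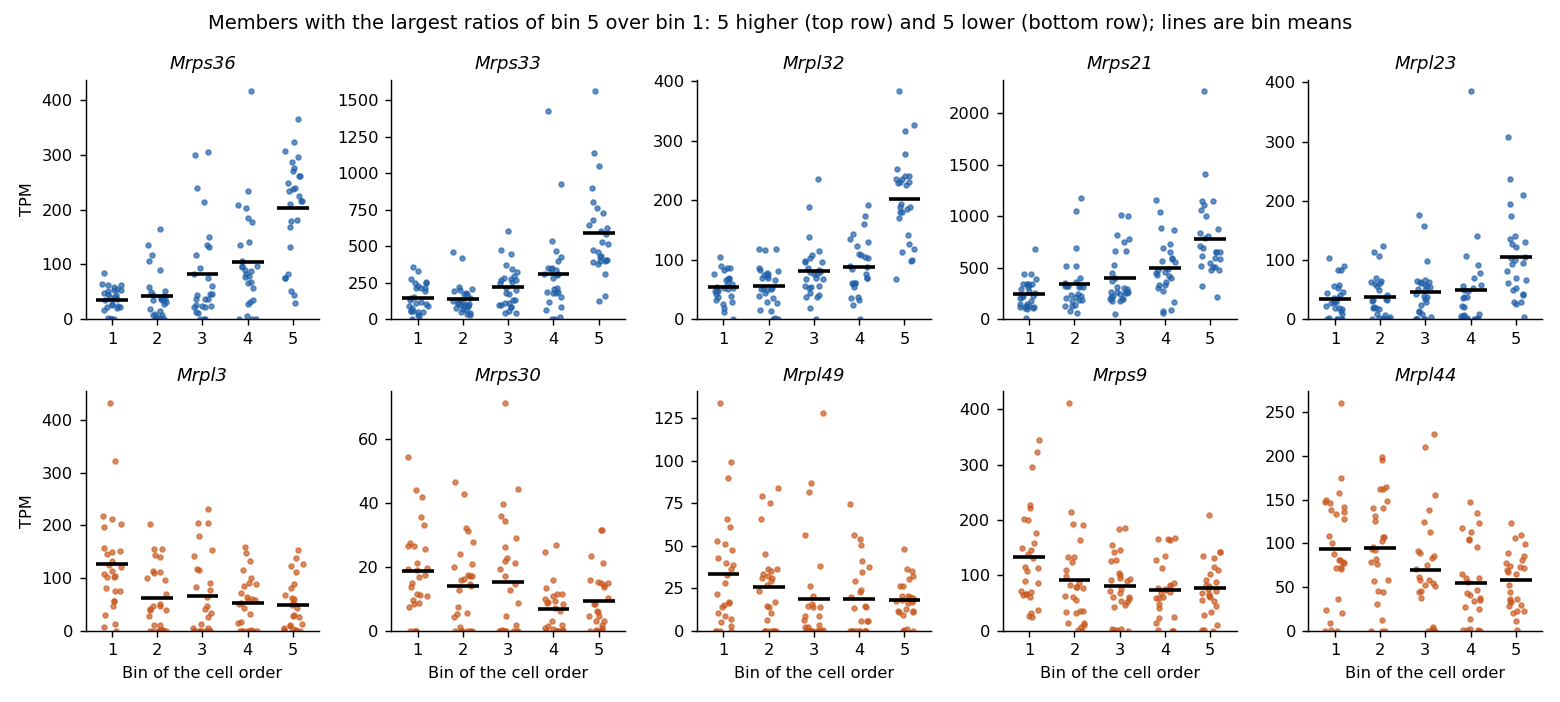
TPM of single cells (points) in the 5 bins of the order, with the mean of each bin as a line, for the 5 members with the largest ratio of bin 5 over bin 1 (top row) and the 5 with the smallest (bottom row). Each axis starts at 0 and has its own scale. In Mrps33 and Mrpl32, 24 of 27 cells of bin 5 lie above every cell of bin 1, while the cells of the bottom row overlap in all bins.

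Several members of high level stayed within 1.5-fold. Mrps18c was at a median of 426 TPM in bin 1 and 453 TPM in bin 5 (log2 ratio 0.07), Mrps14 had a log2 ratio of 0.09, Mrps24 of 0.23 and Mrpl15 of -0.16. Mrpl12 stood at 0.05 and Mrps18a at -0.40. Mrps18b, a member of low level, stood at -0.14. Where 24% of all coding genes were higher and 38.8% lower, 15 of the 50 large subunit genes were higher (30%) and 6 lower (12%), and 3 of the 26 small subunit genes were higher (11.54%) and 1 lower (3.85%). The medians of the log2 ratio were 0.04 and 0.15. Genes with a bacterial counterpart had 13 of 47 higher (27.7%) and 3 lower (6.38%), and the mitochondria-specific ones 5 of 29 (17.2%) and 4 (13.8%). The differences between these classes were not tested.

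The ratios went with transcript length, a relation looked at after the values were seen. Because the length columns of the tables were too short for many genes with several transcripts (for Mrps17 by a factor of 8.12, although they held for others such as Mrpl11), an effective length was derived from reads and TPM. Among the 19 Mrp genes under 500 bases, 11 were higher and 0 lower, with a median log2 ratio of 0.67, while 41.8% of the 682 coding genes of that length were higher and 22.6% lower. Among the 36 members of 500 to 1000 bases, 5 were higher and 0 lower (30.6% and 30.6% of 1960 coding genes). Among the 22 members of 1000 bases or more, 3 were higher and 7 lower (21.2% and 41.8% of 9114 coding genes), with a median log2 ratio of -0.40. All 7 lower members were thus in the longest class. Over the 77 genes, rho of length with the log2 ratio was -0.50, against -0.13 over all coding genes, -0.65 over the respiratory genes and -0.29 over the cytosolic ribosomal protein genes. It was -0.56 over the large subunit and -0.18 over the small one. Genes are not independent replicates, and the part of RNA length in amplification was not tested.

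**Figure D4:**
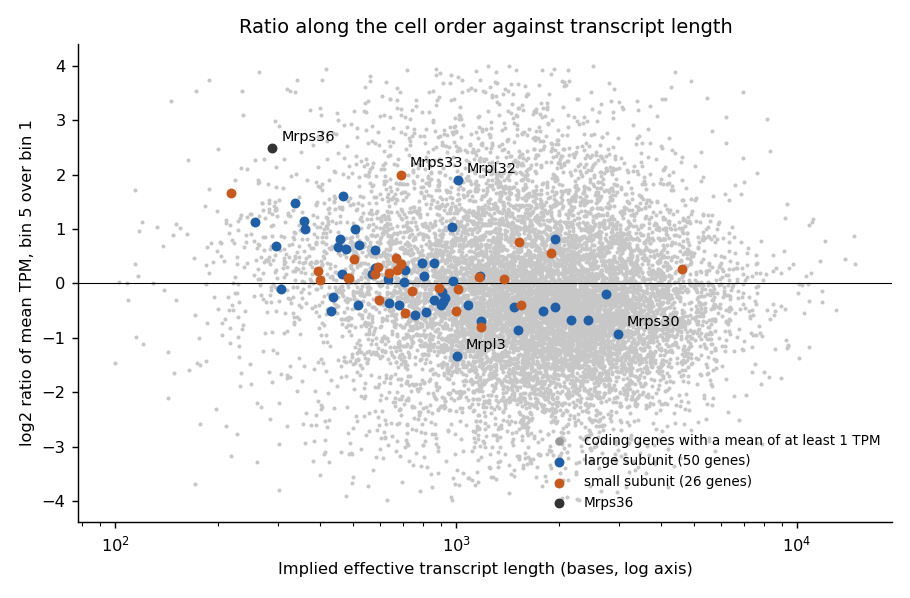
Log2 ratio of the mean TPM (+ 1) of bin 5 over bin 1 against the effective length in bases on a log axis, for all coding genes (gray) and the Mrp genes (colored). All 11 members higher under 500 bases lie at the upper left, and the 7 lower members lie at 1000 bases or more. Coding genes outside the axes (224, no Mrp gene among them) are not drawn.

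The start regions of the genes were then read for short sequences known as sites of factors that act on many genes for mitochondria. These were GCGCA, any base and GCGC for NRF1, CCGGAAG for ETS factors such as GABPA, and AAGATGGC for YY1, each searched on both strands, with a match that reads alike on both strands counted once. Windows ran from 250 bases before to 50 after the start in RefSeq (GRCm38.p6) and were found for 68 of the 77 genes, with 74 windows in all. A gene with several starts was counted once, with a match in any of its windows, and so had more chances of one. The following stretches of 30 bases, 5′ to 3′ on the strand of the gene, show the match in capitals for those of the 5 members with the largest ratios in each direction that hold one, and for Mrps18c and Mrpl33, which were among the highest.
Mrps33, ETS, chr6:39810887-39810916, minus strand: aagtaaaggggggcgggcCTTCCGGggacg
Mrpl32, NRF1, chr13:14613105-14613134, minus strand: tttgacccttGCGCATGCGCaagaggggcc
Mrpl32, YY1, chr13:14613258-14613287, minus strand: cgcgctctGCCATCTTtacccggaaagtcg
Mrps21, NRF1, chr3:95871586-95871615, minus strand: ggaaagtccaGCGCCTGCGCtcagcaccga
Mrps21, ETS, chr3:95871477-95871506, minus strand: gtagcttccgCTTCCGGtccgcagagaccc
Mrpl33, ETS, chr5:31613938-31613967, plus strand: cgcgcatgccCCGGAAGtagtcgttgagct
Mrps18c, ETS, chr5:100798593-100798622, plus strand: ggtcacgtgaCTTCCGGcccgggaagcgcg
Mrpl3, ETS, chr9:105053239-105053268, plus strand: gagaaacggaCCGGAAGtggcccggctgtg
Mrpl49, YY1, chr19:6057720-6057749, minus strand: ttgaggcgccAAGATGGCagcagcggtgtt
Mrps9, NRF1, chr1:42851218-42851247, plus strand: tgggaggtctGCGCCTGCGCagtctccagg
Mrpl44, NRF1, chr1:79775973-79776002, plus strand: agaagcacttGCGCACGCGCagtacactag

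NRF1 matches were found for 13 of the 68 genes (19.1%), against 5.19% of all 27025 symbols of the RefSeq table and 12.1% of the 9217 coding genes tested that it holds. ETS matches were found for 25 genes (36.8%, against 9.93% and 20.6%) and YY1 matches in 12 (17.6%, against 3.19% and 5.47%). At least 1 of the 3 was found for 42 genes (61.8%, against 16.4% and 33.5%), beside 58.1% of the respiratory genes and 54.8% of the cytosolic ribosomal protein genes. A match is a run of letters and not a measured site. The YY1 matches of Mrps18a, Mrps27, Mrpl49, Mrps7, Mrpl35, Mrpl37, Mrpl42 and Mrps24 lay after the start, at positions 12 to 37. Those of Mrpl36, Mrps11, Mrps12 and Mrpl32 lay before it, at positions -30 to -242. The YY1 letters contain ATG, and overlap with a start codon was not checked.

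The median log2 ratio of bin 5 over bin 1 was 0.12 with an NRF1 match and 0.07 without, 0.07 with an ETS match and 0.09 without, and 0.16 with a YY1 match and 0.07 without. Over all coding genes, 24% were higher and 38.8% lower. Of the members with an NRF1 match 4 of 13 were higher and 3 lower, against 14 of 55 and 4 without. With an ETS match 7 of 25 were higher and 1 lower, against 11 of 43 and 6. With a YY1 match 3 of 12 were higher and 1 lower, against 15 of 56 and 6. These differences were not tested. As the sequences above show, NRF1 matches lay both in members that were higher (Mrpl32, Mrps21) and in members that were lower (Mrps9, Mrpl44). Mrps36, Mrpl23 and Mrps30 held none of the 3 in their windows, which says only that these letters are not there. The 250 bases of Mrps36, the member with the largest ratio, before the start, outside all annotated exons, are shown for comparison.
Mrps36, chr13:100744660-100744909, minus strand: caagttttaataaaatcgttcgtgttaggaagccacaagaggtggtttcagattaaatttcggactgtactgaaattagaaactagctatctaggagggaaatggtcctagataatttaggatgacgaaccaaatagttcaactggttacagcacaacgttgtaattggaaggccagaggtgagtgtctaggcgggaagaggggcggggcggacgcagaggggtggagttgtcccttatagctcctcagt

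The summed Mrp level was then set beside other gene groups of the same cells. It followed the nuclear genes of the respiratory chain and ATP synthase closely, with a rho of 0.83 (all cells, Pearson's r 0.91, and 0.90 without the 2 farthest cells) and of 0.57 to 0.86 within the bins. With the cytosolic ribosomal protein genes rho was 0.32, from 0.11 in bin 1 to 0.63 in bin 5, and it was 0.52 on CPM and 0.90 on the spike-in scale, where rho with the respiratory genes was 0.98. With the 13 protein genes of mitochondrial DNA it was -0.39, with 0.17 in bin 1 and -0.79 in bin 4. That last sign turned on the spike-in scale (0.55), and the value was -0.14 on TPM rescaled without these genes. On the spike-in scale both sums are divided by the same spike-in TPM of the cell (2396 to 35229.5 TPM over the cells). A shared divisor can raise rho by itself, so rho on that scale cannot show how the groups go together. Libraries 33, 25, 23, 21 and 28, which had the highest Mrp sums, also had respiratory sums of 44283 to 63158 TPM. The median of the respiratory sum over cells was 30025 TPM. All these sums share a library and a fixed total, and the summed Mrp level also went with the share of TPM on symbols not found in the annotation (rho -0.56) and with reads (0.29). Their part was not tested.

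**Figure D5:**
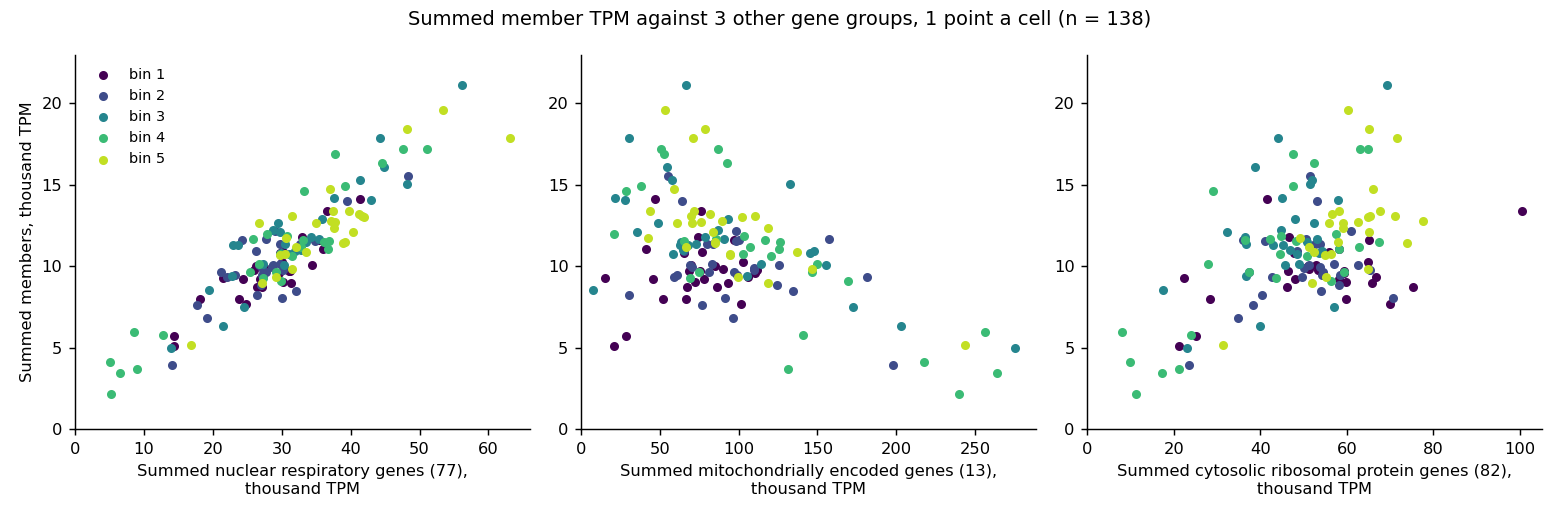
Summed TPM of the 77 genes (vertical axis, in units of 1000 TPM) against the summed TPM of 3 other groups (horizontal axes, in units of 1000 TPM), 1 point a cell, colored by bin. The points lie along a line with the nuclear respiratory genes (rho 0.83) and spread out with the cytosolic ribosomal protein genes (rho 0.32). With the genes of mitochondrial DNA (rho -0.39), low Mrp sums lie on both sides. The lowest sum (2147 TPM) lies at the right, at 239635 TPM. A low sum of bin 1 (5089 TPM) lies at the left, at 21101 TPM.

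From bin 1 to bin 5, where 24% of all coding genes were higher and 38.8% lower, 28 of the 77 respiratory genes were higher (36.4%) and 13 lower (16.9%), with a median log2 ratio of 0.36 and a range of -1.86 to 2.14, the highest being Ndufb2, a complex I subunit. Of the cytosolic ribosomal protein genes 19 of 82 were higher (23.2%) and 10 lower (12.2%, median 0.27), and of the genes of mitochondrial DNA 4 of 13 and 0 (median 0.50).

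The genes that build and serve the mitoribosome had lower medians than the Mrp genes, under that of all coding genes (-0.28) except for the mitoribosome genes with other names. Their shares of higher genes went from 5.88% to 16.7%, under that of all coding genes (24%). Their shares of lower genes went from 33.3% to 50%, on either side of that of all coding genes (38.8%). Of 24 assembly factors 3 were higher and 11 lower (median -0.49), with the rRNA methyltransferase Mrm1 at -2.51 and Mettl17 at 2.28. Of 16 translation factors 1 was higher and 7 lower (median -0.43), with the elongation factor Gfm1 at -1.65. Of 17 mitochondrial tRNA synthetases 1 was higher and 7 lower (median -0.47), with the threonyl enzyme Tars2 at -1.79. Of 8 genes for transcription and replication of mitochondrial DNA 1 was higher and 4 lower (median -0.57), with the transcription factor Tfb2m at -1.67. Among the 6 mitoribosome genes with other names, Gadd45gip1 was at 1.70 and Ptcd3 at -1.40 (median -0.03). The lists were not matched with the Mrp genes for level or length. The assembly, translation, tRNA synthetase and mitochondrial DNA lists had median levels of 22.5 to 40.1 TPM, against 95.5 TPM for the Mrp genes. Mrp genes of 1000 bases or more themselves had a median log2 ratio of -0.40. These differences between lists were not tested.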

How the data were processed

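The authors quantified each library with Salmon against mm10 with spike-in sequences added (FastQC for quality), and deposited per gene the TPM, the estimated counts of reads and the lengths. The annotation release is not given in the sources used here. Symbols were matched to GENCODE M21. Libraries with Ddx4 under 1 TPM were left out, and libraries correlating above 0.95 were averaged as 1 cell. Levels are deposited TPM, and ratios are log2 of bin means after adding 1 TPM, counted beyond 1.5-fold among coding genes with a mean of at least 1 TPM. Nothing was tested, since the cells are 1 group. Effective lengths were taken from summed estimated counts over summed TPM. The members and lists were chosen with earlier results of these data known. Genes were named by rule: the 8 highest and 5 lowest means, the 5 largest ratios each way, the 3 highest and 3 lowest CVs, the 3 closest pairs, members by role (Mrps18a, Mrps18b, Mrps18c, Mrps30, Mrps36, Mrpl12, Mrpl57), and from each other list the 2 largest ratios with a mean of at least 5 TPM, of which some are given. Further members are named as examples, after their values were seen. Alternatives changed the scale (CPM, spike-in, nuclear coding genes), pseudocount, kind of mean, cell order, number of bins, cells and detection. Computations used Python 3.11.15, NumPy 2.4.6, pandas 2.3.3, SciPy 1.17.1 and matplotlib 3.10.9, and were tested on simulated data. The order alternative used 2000 variable genes.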

Additional observations from a re-analysis of the deposited data

Results flagged for a closer look

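Signals appeared in data outside the comparisons. The library without Ddx4, which was left out, still showed 38 of the 77 Mrp genes at 0.1 TPM or more, with a summed level of 1282 TPM, under the lowest of the cells kept (2147 TPM). The pseudogene row Mrpl23-ps1, outside the names used, had a mean of 163 TPM and stood above Mrpl23 in 85.5% of cells.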

How the results depend on the processing

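No paired analysis was possible because all cells are 1 group and no replicate numbers pair them. Of the values that answer a comparison, 171 alternatives kept the main value within its limits, and the others follow. On CPM, 4 members were lower, the median summed level was 6558, and rho was -0.20 with the genes of mitochondrial DNA and 0.52 with the cytosolic ribosomal protein genes. On TPM rescaled over nuclear coding genes the summed level was 15081 and rho with the genes of mitochondrial DNA -0.14. On the spike-in scale, 50 members were higher and 0 lower, the median log2 ratio was 0.93 (bin 5 over bin 1) and 0.86 (bin 5 over bin 3, where it had been -0.11), and rho was 0.98 with the respiratory genes, 0.55 with the genes of mitochondrial DNA, where it had been -0.39, and 0.90 with the cytosolic ribosomal protein genes. Both sums of each rho on the spike-in scale share the spike-in TPM of the cell as a divisor. On that scale the log2 ratio of Mrps30 stood at 0.024, Mrpl45 at 0.10, Mrpl49 at 0.015, Mrps9 at 0.12 and Mrpl44 at 0.12, while Mrpl3 stayed negative at -0.35. With means of log2 values, 29 members were higher, the median of bin 5 over bin 3 was again above 0 (0.33) and rho with length -0.39. With the order from variable genes, 17 members were lower. The causes were not tested. For the log2 ratios of single named genes, counted separately, 435 alternatives kept the main value within its limits. A further 9 were stronger, 16 weaker and 15 moved otherwise, and 5 changed sign. Of these only the sign changes and Mrpl3 on the spike-in scale are listed here. Leaving out single cells gave medians of 0.06 to 0.16 (bin 5 over bin 1), 18 to 20 members higher and 7 to 10 lower. Alternatives on repeated libraries, on the cells under 1000 TPM of haemoglobin RNA and on the cells without Foxl2 were chosen after seeing the data and moved none of those comparisons beyond the limits.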
